A study of Mus musculus with 8 samples.

Results

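Glycolysis and hypoxia-response metabolism in mouse embryonic stem cells (ESCs) was followed through 33 genes of the 52550 listed in the count tables. The genes were picked by name, each symbol was matched to its Ensembl gene identifier, and the rule uses no measured value, although the list was drawn up with earlier results of these data known. They encode transporters of glucose and lactate (3 genes), enzymes of the upper glycolytic steps (9) and of the lower steps (7), lactate dehydrogenase (2), PFKFB enzymes (3), pyruvate dehydrogenase and its kinases (4) and other products of the hypoxia response (5). All 33 passed the filter on low counts, beside 20749 genes tested in all. Hk2, Tpi1, Gapdh, Eno2 and Ldhb lie on chromosome 6 and the other 28 genes elsewhere. Aldoa has a second identifier with 0 to 25 counts, and ENSMUSG00000030695.15 was used.

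Glycolysis splits glucose to pyruvate in the cytosol, and lactate dehydrogenase turns pyruvate into lactate, which leaves the cell through monocarboxylate transporters. Under low oxygen the prolyl hydroxylases that mark hypoxia-inducible factor (HIF) for degradation slow down, HIF accumulates, and it raises transcription of glucose transporters, most glycolytic enzymes, the kinase PDK1 that holds back pyruvate entry into mitochondria, and BNIP3, an outer mitochondrial membrane protein of mitophagy. Pluripotent stem cells are known for a high rate of glycolysis, and the balance between glycolysis and respiration differs between pluripotency states.

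Control ESCs and Dax1KO ESCs were each grown on gelatin in 2 media and sequenced as mRNA at passage 3, with 2 libraries in each of 4 groups. Both media held 10 ng/ml of the cytokine LIF. The 2i/LIF medium was serum-free N2B27 with 1 μM PD0325901, a MEK inhibitor, and 3 μM CHIR99021, a GSK3 inhibitor, and LIF/serum was DMEM with 15% fetal bovine serum. Dax1KO was a CRISPR/Cas9 line lacking Dax1 (Nr0b1), a nuclear receptor family corepressor, made with a lentiviral Cas9-zeocin vector and zeocin selection in 2i/LIF. The study obtained several Dax1KO colonies and used a single clone in its functional experiments. It reports that putting Dax1 back in a rescue line removed the lethality. That line is not among these libraries, so in them loss of Dax1 and the history of the clone cannot be told apart. By the study's account Dax1KO cells could not be kept in LIF/serum over repeated passages. The labels name the comparison cells control, and the study's own text uses both control and wild-type. No source used here says whether the libraries of a group came from separate cultures. P values therefore measure the spread between these libraries, which may be technical.

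Totals lay between 35911384 and 37286251 counts per library. The Dax1 count was 456 and 300 in control libraries in 2i/LIF, 5095 and 4689 in control libraries in LIF/serum, and 0 to 14 in Dax1KO libraries. Genes of chromosome 6 took 4.20% to 4.39% of the counts in control libraries and 5.86% to 6.31% in Dax1KO libraries. All 9 ESC markers were counted above the floor of 3 in every group. The 7 primitive endoderm markers summed to 2088 to 2805 normalized counts in 2i/LIF, 9261 to 12601 in control cells in LIF/serum and 19957 to 23821 in Dax1KO cells in LIF/serum. In bulk RNA a change in the share of a cell type and a change per cell cannot be told apart.

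The promoters of the genes are shown first for 4 members that differed between groups or libraries in contrasting ways, Ldha, Ldhb, Pgk1 and Bnip3. Each sequence runs 5′ to 3′ along the gene's own strand and spans 250 bases before to 50 bases after a RefSeq transcription start in GRCm38.p6. Capitals mark ACGTG on either strand, the core of the HIF response element, joined where matches overlap. Ldha lies at chr7:46845554-46845853 on the plus strand, Ldhb at chr6:142507908-142508207 on the minus strand, Pgk1 at chrX:106186850-106187149 on the plus strand and Bnip3 at chr7:138909457-138909756 on the minus strand.
Ldha: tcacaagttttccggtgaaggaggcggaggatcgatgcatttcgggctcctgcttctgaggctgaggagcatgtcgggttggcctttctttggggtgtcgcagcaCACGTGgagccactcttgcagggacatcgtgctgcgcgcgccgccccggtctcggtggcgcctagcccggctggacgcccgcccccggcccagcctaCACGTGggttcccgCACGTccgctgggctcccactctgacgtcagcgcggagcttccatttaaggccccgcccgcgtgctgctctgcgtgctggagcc
Ldhb: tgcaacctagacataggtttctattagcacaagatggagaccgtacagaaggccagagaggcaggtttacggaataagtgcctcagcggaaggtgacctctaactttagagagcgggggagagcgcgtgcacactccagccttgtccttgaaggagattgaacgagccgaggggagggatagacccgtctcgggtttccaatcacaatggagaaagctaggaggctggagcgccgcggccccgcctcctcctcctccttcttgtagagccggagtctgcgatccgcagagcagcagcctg
Pgk1: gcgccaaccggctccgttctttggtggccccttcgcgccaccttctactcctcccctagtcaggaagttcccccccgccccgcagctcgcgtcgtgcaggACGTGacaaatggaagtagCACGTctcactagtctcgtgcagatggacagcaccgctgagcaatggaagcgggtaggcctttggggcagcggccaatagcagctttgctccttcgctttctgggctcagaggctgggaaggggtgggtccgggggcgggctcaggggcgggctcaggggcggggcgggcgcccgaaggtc
Bnip3: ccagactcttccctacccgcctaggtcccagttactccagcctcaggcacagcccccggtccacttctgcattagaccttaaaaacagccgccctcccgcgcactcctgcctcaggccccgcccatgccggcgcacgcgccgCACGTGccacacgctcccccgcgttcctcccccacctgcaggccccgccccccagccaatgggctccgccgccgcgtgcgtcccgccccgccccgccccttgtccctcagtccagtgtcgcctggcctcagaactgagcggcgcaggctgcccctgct

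The Ldha window held 3 separate stretches in capitals, 2 of them the palindrome CACGTG, which is also the E-box of Myc family factors. Pgk1 had 2 stretches and Bnip3 had 1, a CACGTG. Ldhb had no ACGTG in this window, though it did hold GCGTG, the other HIF core. RefSeq starts were found for 32 of the 33 members (Ndrg1 not matched), with 48 promoters in all. ACGTG on either strand occurred in 24 of these 48 promoters, beside 19.6% of all 32851 promoters of the same length, and in at least 1 promoter of 20 of the 32 genes, 62.5%, beside 21.8% of all 27025 genes. Of the 11 members called lower in 2i/LIF in both lines, 7 held it (Bnip3, Slc2a1, Slc16a3, Ldha, Pgk1, Pgam1 and Pkm), and of the 2 called higher in both, Hk1 held it and Ldhb did not. The 12 genes without it were Dlat, Eno1, Eno2, Eno3, Gpi1, Ldhb, Pdha1, Pdk1, Pfkfb4, Pfkl, Pfkp and Tpi1. GCGTG occurred in 58.3% of the members' promoters beside 32.4% of all, and CACGTG, each case of which also counts under ACGTG, in 12.5% beside 7.15%. A match of letters is a description of these windows and not a measured binding site.

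The libraries within a group were not alike for these genes, which bears on every comparison. Library 2 was above library 1 for 28 of the 33 genes in control cells in 2i/LIF, 25 in Dax1KO cells in 2i/LIF, 27 in control cells in LIF/serum and 29 in Dax1KO cells in LIF/serum. Over all tested genes the share above was 48.2% to 50.7%. In all 4 groups alike it was so for 19 of 33 genes, 57.6%, beside 9.0% of all tested genes, and for no member was library 1 above library 2 in every group. The median log2 difference over the 33 genes was 0.32, 0.14, 0.42 and 0.44 in the same order of groups. Egln3 differed by 0.77, 0.60, 1.98 and 1.98, and Bnip3 by 1.96, -0.0041, 1.71 and 1.55. Of 36 other HIF target genes, library 2 was higher for 27, 22, 30 and 31, while of 14 regulators of the HIF pathway it was higher for 7 in each group. The labels give no meaning to the library numbers beyond the replicate, and what moved with them was not tested.

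**Figure D1:**
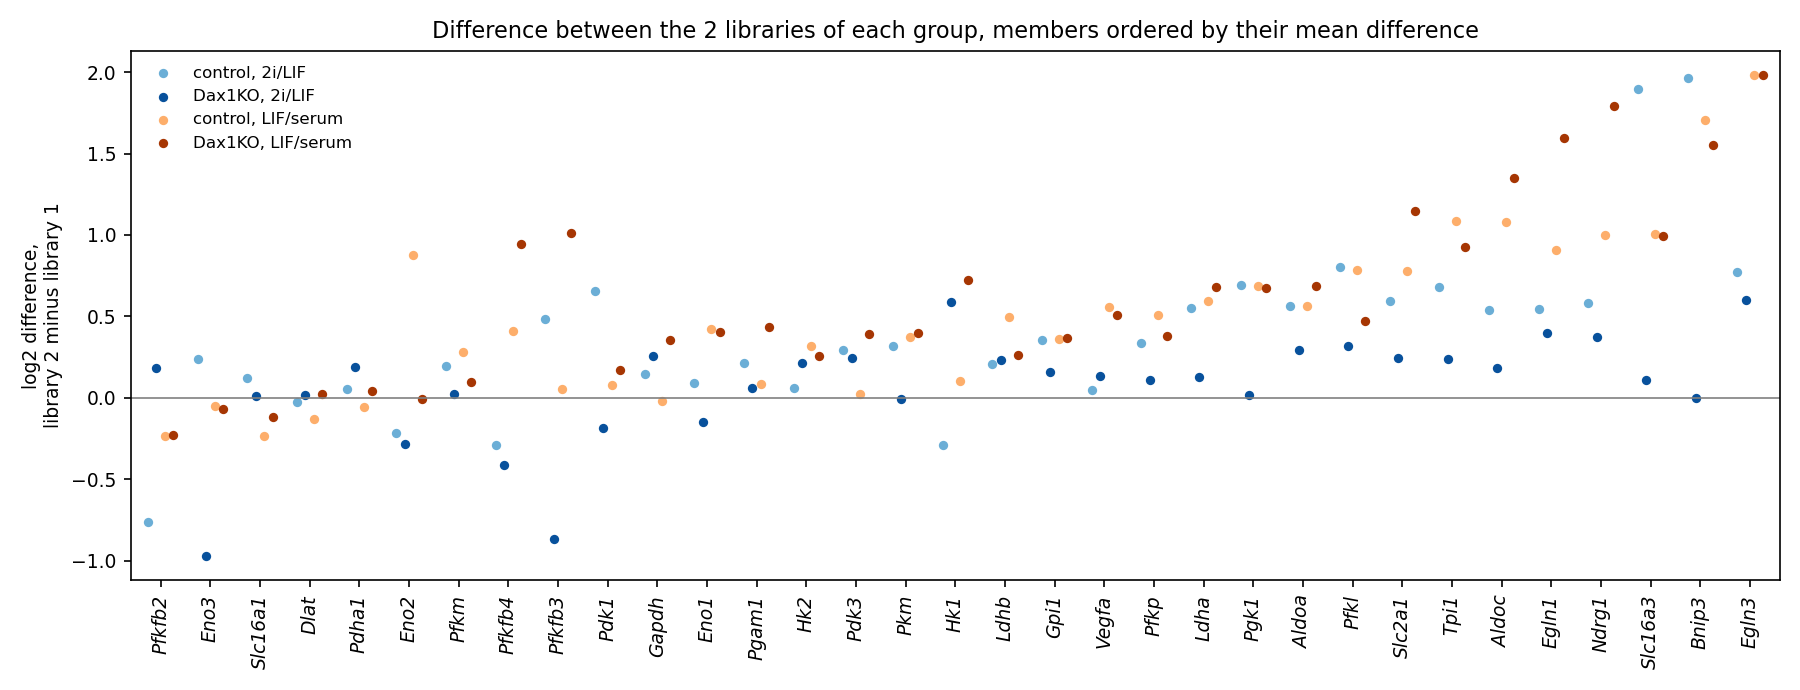
Log2 difference between library 2 and library 1 of each group for the 33 genes, ordered along the horizontal axis by their mean difference, with a point for each of the 4 groups. Most points lie above 0, and Egln3 reaches 1.98 in both LIF/serum groups.

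Levels are given as normalized counts, that is counts brought to a common library size with TMM factors. Between genes they are compared only after division by the kilobases of annotated exon. On this per-kilobase scale Pkm, Ldha, Aldoa, Pgk1, Eno1 and Pgam1 formed the top of the list in all groups. This order depends on the length used, the union of annotated exons, which is 4.13 kb for Gapdh, 2.24 kb for Pgk1 and 1.98 kb for Pgam1. Before division Gapdh was above Pgk1 and Pgam1 in control cells in 2i/LIF, at 18886 against 13065 and 16362. The level of Pkm, pyruvate kinase, was 12262 ± 1910.3 (SD, n = 2) in control cells in 2i/LIF and 22302 ± 4088 (SD, n = 2) in LIF/serum. Eno2 and the 3 PFKFB genes were low in every group, between 25.1 and 81.2 per kilobase, and Eno3 lay between 51.0 and 328. The order of neighbours in the list was not tested.

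**Figure D2:**
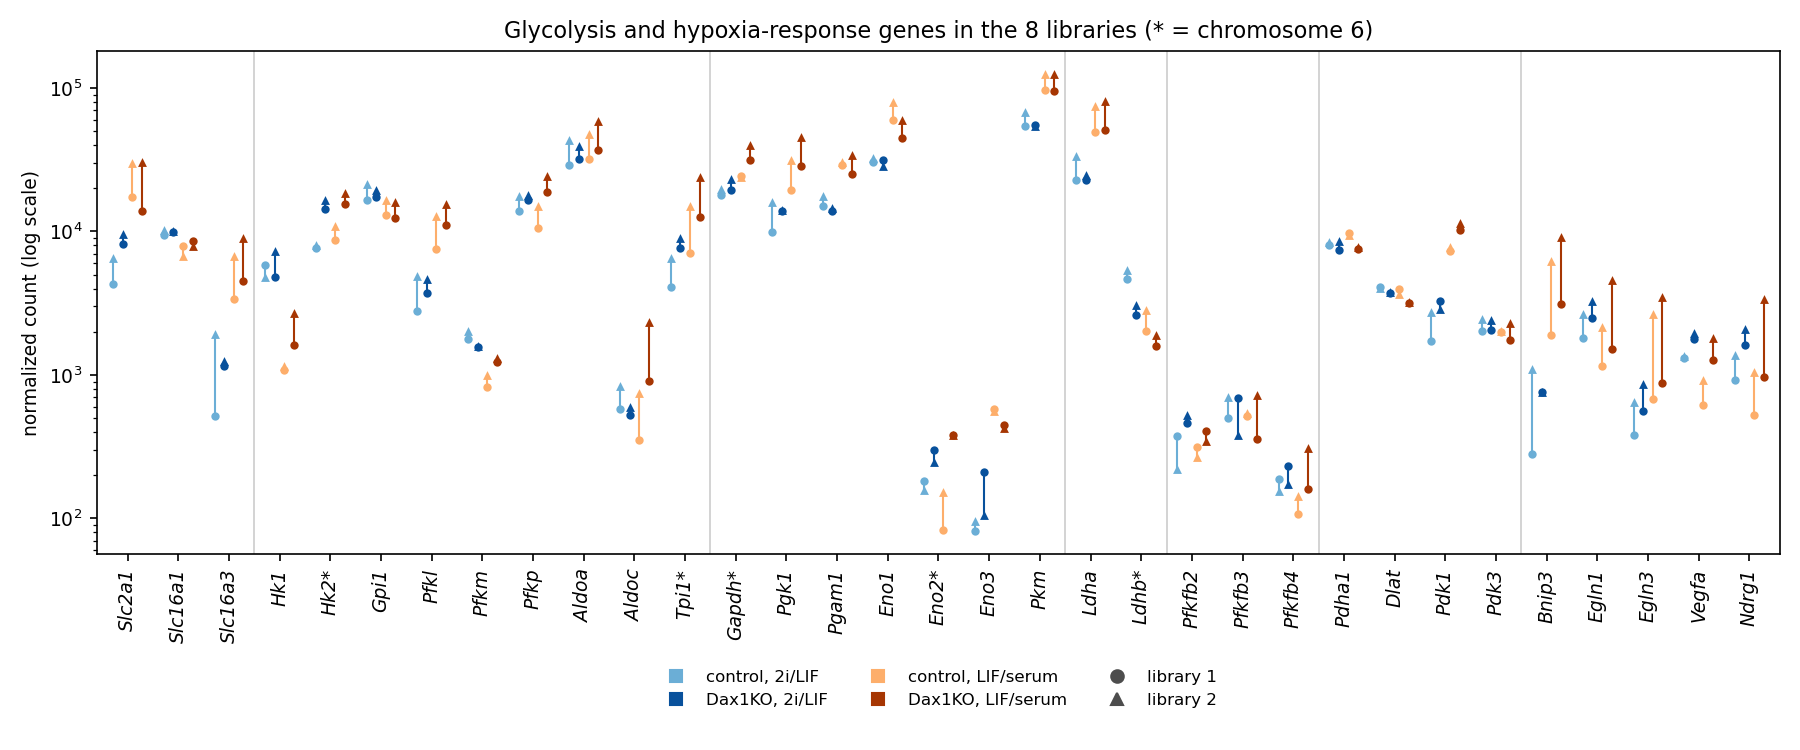
Normalized counts (log axis) of the 33 genes, grouped by role along the horizontal axis, with a circle for library 1 and a triangle for library 2 of each group and a line joining the pair. In LIF/serum the triangles of Bnip3, Egln3, Ndrg1 and Egln1 stand well above the circles, and the Hk1 points of LIF/serum lie below those of 2i/LIF.

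More of the genes were called between media than between cell lines. Calls rest on edgeR's quasi-likelihood test, with a p of 0.05 or less after Benjamini-Hochberg adjustment over all 20749 genes and at least a 1.2-fold change. In control cells 11 of the 33 genes were called lower in 2i/LIF than in LIF/serum, where 16.5% of all tested genes were called lower, and 5 were called higher, where 20.3% of all tested genes were. In Dax1KO cells 13 were called lower, beside 13.7% of all genes, and 2 higher, beside 15.2%. Eno3, Bnip3, Slc2a1, Slc16a3, Pdk1, Pfkl, Eno1, Ldha, Pgk1, Pgam1 and Pkm fell in 2i/LIF in both lines, and Hk1 and Ldhb rose in both. Aldoc and Gapdh were called lower in Dax1KO cells alone, and Pfkm, Vegfa and Slc16a1 were called higher in control cells alone. The difference of the medium effect between the lines, tested as an interaction, was called by edgeR for none of the 33 genes, beside 2.87% of all genes at an adjusted p of at most 0.05. Pfkm, Aldoc, Eno2 and Eno3 had an unadjusted p under 0.05 in that test, and DESeq2 called Pfkm and Aldoc. The median log2 difference over the 33 genes was -0.14 in control cells and -0.43 in Dax1KO cells, beside 0.01 over all genes in each line. Without library 1 of control cells in 2i/LIF, 9 genes were called in control cells in place of 16. In Dax1KO cells 5 were called without library 1 of 2i/LIF, 8 without library 2 of 2i/LIF and 8 without library 2 of LIF/serum, in place of 15.

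**Figure D3:**
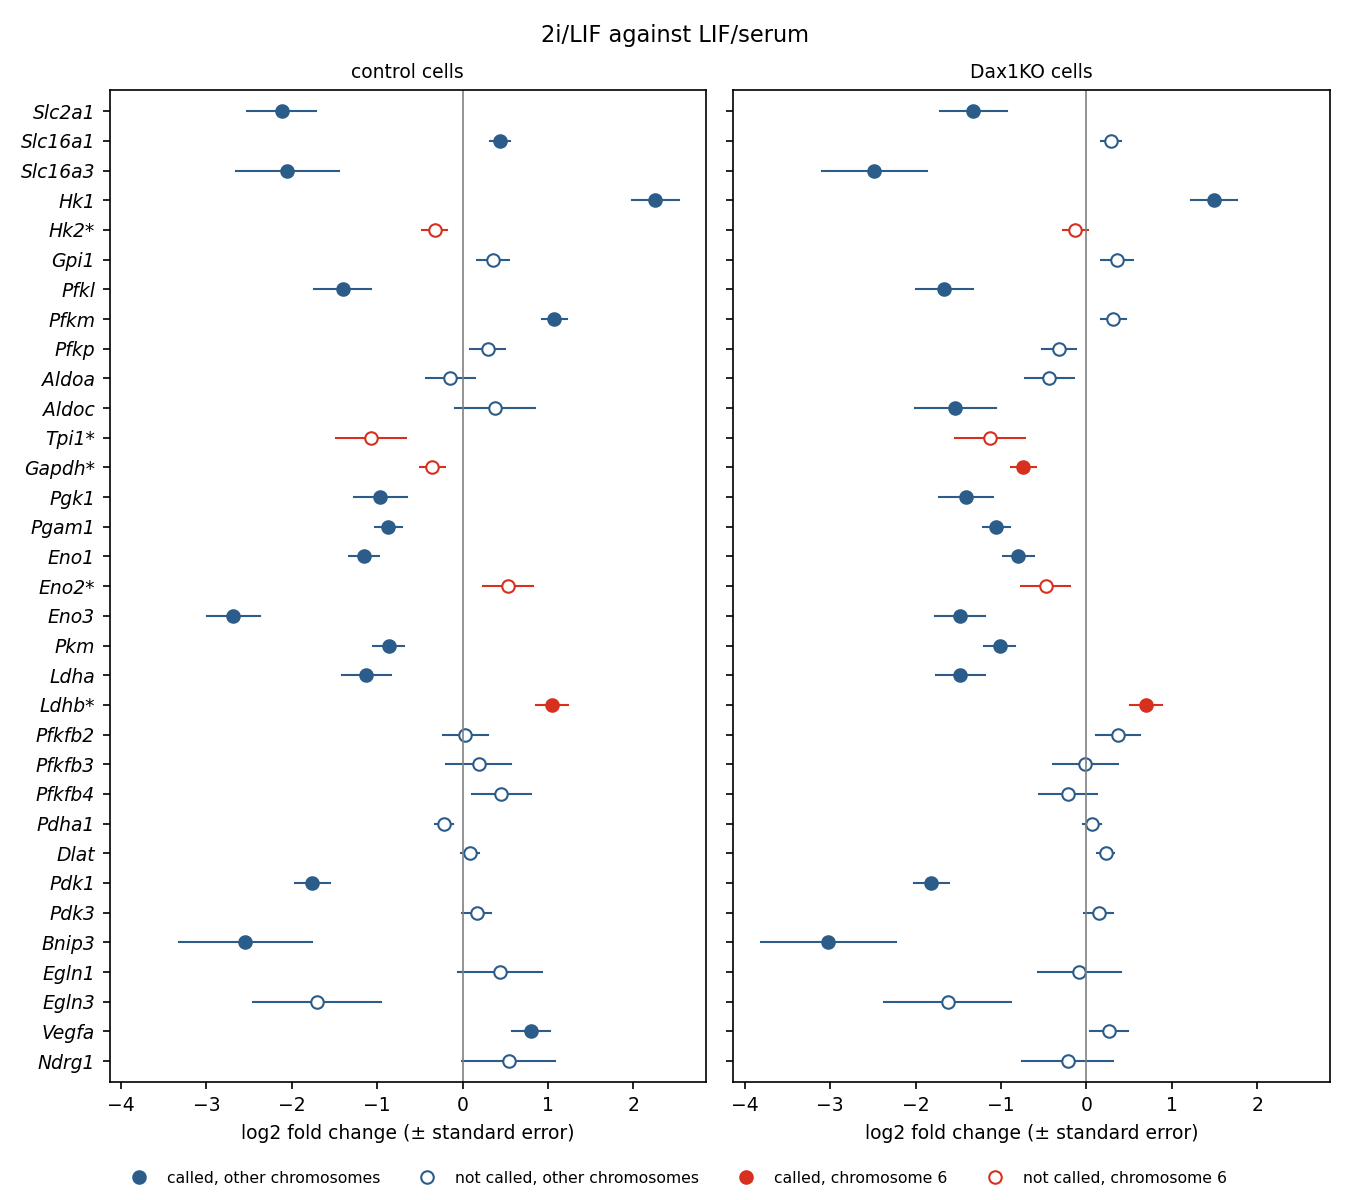
Log2 fold change of 2i/LIF against LIF/serum for each gene in control cells and in Dax1KO cells, with bars of ± 1 standard error. Filled points were called, and red marks the 5 genes of chromosome 6. Hk1 and Ldhb lie to the right of 0 in both panels, and Eno3, Bnip3, Slc2a1, Slc16a3 and Pdk1 far to the left.

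Among the transporters, Slc2a1 (GLUT1), a glucose transporter, had 4333 and 6551 normalized counts in control cells in 2i/LIF and 17358 and 29807 in LIF/serum. In Dax1KO cells the values were 8142 and 9646 in 2i/LIF and 13826 and 30677 in LIF/serum. Every 2i/LIF library lay below every LIF/serum library. The log2 change was -2.12 (SE 0.41, edgeR adjusted p = 0.00495) in control cells and -1.32 (SE 0.40, edgeR adjusted p = 0.0385) in Dax1KO cells. Slc16a3 (MCT4), the carrier that exports lactate, had 517 and 1932 in control cells in 2i/LIF against 3375 and 6784 in LIF/serum, and 1157 and 1247 against 4493 and 8956 in Dax1KO cells. It fell in 2i/LIF by 2.05 (SE 0.60, edgeR adjusted p = 0.030) and by 2.48 (SE 0.61, edgeR adjusted p = 0.0189) on the log2 scale. Slc16a1 (MCT1), which carries lactate in both directions, went the other way. It had 9478 and 10322 in control cells in 2i/LIF and 7869 and 6696 in LIF/serum, a rise of 0.44 (SE 0.12, edgeR adjusted p = 0.0192), and its estimate in Dax1KO cells, 0.29, was not called (edgeR adjusted p = 0.104). The rise ended without library 2 of either medium in control cells and in a separate fit of 4 libraries. The calls of Slc2a1 and Slc16a3 in Dax1KO cells ended without library 1 or 2 of 2i/LIF or library 2 of LIF/serum, and without the filter on low counts. Without library 2 of LIF/serum the Slc2a1 estimate in Dax1KO cells was -0.64. In control cells the Slc16a3 estimate ran from -3.34 without library 2 of 2i/LIF to -1.39 without library 1. The Slc16a3 call in control cells ended without library 1 of control cells in 2i/LIF, library 2 of control cells in LIF/serum or either Dax1KO library in 2i/LIF, and without the filter.

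At the entry to glycolysis the hexokinases, which phosphorylate glucose, differed from each other. Hk1 had 5881 and 4811 normalized counts in control cells in 2i/LIF and 1078 and 1157 in LIF/serum, and in Dax1KO cells 4854 and 7293 against 1628 and 2690.1. Its 2i/LIF values were above its LIF/serum values in every library, and the log2 change was 2.26 (SE 0.28, edgeR adjusted p = 0.000592), or 4.78-fold, in control cells and 1.49 (SE 0.27, edgeR adjusted p = 0.00479) in Dax1KO cells. Hk2, the isozyme under HIF control in many tissues, was not called by medium, with estimates of -0.32 in control cells and -0.13 in Dax1KO cells. The call of Hk1 held under all 15 alternatives in both lines.

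Phosphofructokinase, which commits the sugar to glycolysis, changed by isozyme as well. Pfkl, the liver form, had 2806 and 4905 in control cells in 2i/LIF and 7494 and 12894 in LIF/serum, and 3728 and 4649.5 against 11100.1 and 15425 in Dax1KO cells. It fell in 2i/LIF by 1.40 (SE 0.33, edgeR adjusted p = 0.0125) and by 1.66 (SE 0.33, edgeR adjusted p = 0.00800), with no overlap between media. Pfkm, the muscle form, rose in 2i/LIF in control cells by 1.08 (SE 0.14, edgeR adjusted p = 0.000907), from 818 and 995 to 1783 and 2038. In Dax1KO cells Pfkm was at 1563 and 1587 against 1222 and 1307 and was not called (edgeR adjusted p = 0.135). Pfkp, the platelet form, was not called by medium in either line. Pfkm shares genome with Senp1 and Pfkp with Pitrm1, and no source states a stranded count, so reads of these neighbours could enter their counts. The calls of Pfkl ended without library 1 of 2i/LIF in either line, and in control cells also without library 2 of LIF/serum.

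Of the remaining upper steps, Gpi1 (glucose-6-phosphate isomerase) and Aldoa (the main aldolase) were not called by medium in either line. Gpi1 ranged from 12476 to 21303 and Aldoa from 29186 to 59271 over the 8 libraries. Tpi1, triosephosphate isomerase, had 4086 to 9053 in 2i/LIF and 7133 to 23936 in LIF/serum, with estimates of -1.07 and -1.13 that missed the threshold (edgeR adjusted p = 0.0752 in both lines). Without library 2 of the same line in LIF/serum they were -0.45 and -0.59, and without library 1 they were -1.51 and -1.52. Aldoc, the brain aldolase, was called in Dax1KO cells, at 524 and 595 in 2i/LIF against 912 and 2328 in LIF/serum, a log2 change of -1.53 (SE 0.47, edgeR adjusted p = 0.0435). That call ended under 6 of 15 alternatives: without the filter, without any of the 4 libraries in 2i/LIF, or without library 2 of Dax1KO cells in LIF/serum, where the estimate was -0.70. In control cells Aldoc was at 579 and 841 against 351 and 743.

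Of the lower steps, 5 of 7 genes were called lower in 2i/LIF in control cells and 6 of 7 in Dax1KO cells, with median log2 differences of -0.87 and -1.01. Over all tested genes 16.5% and 13.7% were called lower. Pgk1, phosphoglycerate kinase, had 9978 and 16153 in control cells in 2i/LIF against 19505 and 31447 in LIF/serum, and 13864 and 14014 against 28487 and 45429.6 in Dax1KO cells. It fell by 0.96 (SE 0.31, edgeR adjusted p = 0.0422) and by 1.41 (SE 0.31, edgeR adjusted p = 0.0125). Pgam1, phosphoglycerate mutase, and Pkm fell by 0.87 and 0.86 in control cells and by 1.05 and 1.01 in Dax1KO cells, with edgeR adjusted p values of 0.00345, 0.00775, 0.00194 and 0.00501 in that order. In none of these 3 genes did the media overlap. The Pgk1 call in control cells ended under 6 of 15 alternatives. It ended without the filter, in a separate fit of 4 libraries, and without library 1 of control cells in 2i/LIF, library 2 of control cells in LIF/serum or either Dax1KO library in 2i/LIF. In Dax1KO cells it ended without either library of 2i/LIF or library 2 of LIF/serum. Pkm lost its call in control cells without library 1 of 2i/LIF. Near-identical copies held 4.25% to 5.97% as many counts as Pgk1 and 0.933% to 1.34% as many as Pkm, which also overlaps Gm49759 (at most 2442 counts).

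The 3 enolases did not behave alike. Eno1, the common form, had 30585 and 32631 in control cells in 2i/LIF and 60064 and 80440.3 in LIF/serum, and 31614 and 28469.7 against 44831 and 59431 in Dax1KO cells. It fell in 2i/LIF by 1.15 (SE 0.18, edgeR adjusted p = 0.00188) and by 0.80 (SE 0.18, edgeR adjusted p = 0.0126), the latter call ending without either Dax1KO library of 2i/LIF or library 2 of Dax1KO cells in LIF/serum. Eno1 is uncertain, because its near-identical copies, chiefly Eno1b, together held 32.7% to 39.7% as many counts as Eno1. Eno3, the muscle enolase, was low throughout, at 81.2 and 96.0 in control cells in 2i/LIF against 579.9 and 560.0 in LIF/serum, and at 209 and 106 against 449.6 and 429 in Dax1KO cells. Its log2 change was -2.68 (SE 0.31, edgeR adjusted p = 0.000480), or 6.42-fold, in control cells and -1.48 (SE 0.30, edgeR adjusted p = 0.00800) in Dax1KO cells. Eno2, the neuronal enolase, was not called by medium, with estimates of 0.53 and -0.48. Gapdh, often used as a reference transcript, had 17916 and 19856 in control cells in 2i/LIF against 24337 and 23989.8 in LIF/serum and was not called there (edgeR adjusted p = 0.0924). In Dax1KO cells it fell from 31334 and 40090.3 in LIF/serum to 19548 and 23334 in 2i/LIF, by 0.74 (SE 0.15, edgeR adjusted p = 0.00777), a call that ended without library 1 of Dax1KO cells in 2i/LIF.

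Lactate dehydrogenase showed opposite movement of its subunits. Ldha, whose subunit favours lactate production, had 22986 and 33746 in control cells in 2i/LIF against 49378 and 74459 in LIF/serum, and 22738 and 24895 against 50965 and 81642 in Dax1KO cells. It fell in 2i/LIF by 1.13 (SE 0.28, edgeR adjusted p = 0.0161) and by 1.48 (SE 0.29, edgeR adjusted p = 0.00676). Ldhb, whose subunit favours lactate use, had 4671 and 5385 against 2015 and 2841 in control cells and 2607 and 3067 against 1591 and 1909 in Dax1KO cells. It rose in 2i/LIF by 1.05 (SE 0.19, edgeR adjusted p = 0.00368) and by 0.70 (SE 0.19, edgeR adjusted p = 0.0270). Neither gene's media overlapped within a line. The rise of Ldhb in control cells held under all 15 alternatives, and that in Dax1KO cells ended under 5, without the filter or any of the 4 Dax1KO libraries. The Ldha call ended without library 1 of 2i/LIF in either line, and in control cells also without library 2 of LIF/serum and without the filter.

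Among the switches around pyruvate, Pdk1, which phosphorylates and inhibits pyruvate dehydrogenase, had 1733 and 2729 in control cells in 2i/LIF against 7345 and 7743 in LIF/serum. In Dax1KO cells it had 3256 and 2869 against 10161 and 11416. It fell in 2i/LIF by 1.76 (SE 0.20, edgeR adjusted p = 0.000461) and by 1.82 (SE 0.20, edgeR adjusted p = 0.000542), and both calls held under all 15 alternatives. Pdk3, a kinase of the same family, lay between 1753 and 2472 in all 8 libraries and was not called. Of the pyruvate dehydrogenase complex, Pdha1, its E1 alpha subunit, ranged from 7469 to 9759 and Dlat, its E2 subunit, from 3163 to 4106, neither called by medium. Pdha1 overlaps Map3k15, which had at most 2989 counts. Pfkfb2, Pfkfb3 and Pfkfb4, whose products set the level of fructose-2,6-bisphosphate, ranged from 107 to 726 and were not called by medium in either line.

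Of the 5 hypoxia-response genes, Bnip3 was the one called lower in 2i/LIF in both lines. Bnip3 had 282 and 1103 in control cells in 2i/LIF against 1891 and 6178 in LIF/serum, and 761 and 758 against 3138 and 9205 in Dax1KO cells. It fell in 2i/LIF by 2.54 (SE 0.78, edgeR adjusted p = 0.0351), or 5.82-fold, and by 3.02 (SE 0.79, edgeR adjusted p = 0.0239), or 8.12-fold. Vegfa, the angiogenic growth factor, rose in 2i/LIF in control cells, from 620.2 and 915 to 1315 and 1358, by 0.80 (SE 0.22, edgeR adjusted p = 0.0244). This call ended without either library of control cells in 2i/LIF, without library 1 of control cells in LIF/serum and without the filter. In Dax1KO cells it was at 1778 and 1953 against 1281 and 1820.4, which overlap, and was not called. Egln3, an inducible prolyl hydroxylase, had 381 to 858 in 2i/LIF and 676 to 3505 in LIF/serum, with estimates of -1.70 (edgeR adjusted p = 0.112) and -1.62 (edgeR adjusted p = 0.144). These were -0.41 in control cells and -0.31 in Dax1KO cells without library 2 of the same line in LIF/serum, and -2.37 and -2.30 without library 1. Egln1, the main prolyl hydroxylase, and Ndrg1, a hypoxia-induced gene, were not called, and their media overlapped within each line. In control cells the Bnip3 estimate ran from -3.89 without library 2 of 2i/LIF to -1.47 without library 2 of LIF/serum and moved with each of the 4 control libraries, and in Dax1KO cells it was -2.05 without library 2 of LIF/serum. The Bnip3 calls ended without the filter, without either Dax1KO library of 2i/LIF, and in each line without library 2 of LIF/serum, and in control cells also without library 1 of 2i/LIF. Bnip3 overlaps Gm45507 and Gm18258, which had up to 1518 counts.

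Between the cell lines few genes were called in 2i/LIF. Hk2 was the single gene called, higher in Dax1KO cells, beside 1.51% of all tested genes called higher, and no gene was called lower, beside 1.65%. At an unadjusted p under 0.05 there were 5 genes, and DESeq2 called Hk2 higher and Ldhb lower. Hk2 had 7701 and 8035 normalized counts in control cells and 14422 and 16701 in Dax1KO cells. The libraries were apart, and the log2 change was 0.98 (SE 0.15, edgeR adjusted p = 0.0181), or 1.98-fold. The call ended without the filter and without any of the 4 libraries in 2i/LIF, while the estimate stayed between 0.87 and 1.09 over 15 alternatives.

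In LIF/serum 5 genes were called between the lines. Eno2, Vegfa, Hk2, Pfkp and Gapdh rose in Dax1KO cells, beside 8.87% of all genes called higher, and none was called lower, beside 5.78%. At an unadjusted p under 0.05 there were 15 genes, and DESeq2 called 8 higher and 1 lower. Of the 5 that rose, 3 lie on chromosome 6. The count depended on library 2 of Dax1KO cells in LIF/serum, without which no gene was called. Without library 1 of control cells in LIF/serum 2 were called, and without either Dax1KO library in 2i/LIF 3 were.

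The chromosome 6 genes were compared with the others because genes of that chromosome were called higher in Dax1KO cells more often than lower. In 2i/LIF 104 of the 1054 tested genes of chromosome 6 were called higher in Dax1KO cells and 7 lower, and in LIF/serum 298 and 17. The median log2 difference over the chromosome was 0.44 and 0.52, beside -0.01 and 0.01 over all genes. Over the 5 members on chromosome 6 it was 0.65 and 0.72. Over the 28 members elsewhere it was 0.06 in 2i/LIF and 0.38 in LIF/serum, and the latter became -0.15 without library 2 of Dax1KO cells in LIF/serum. Elsewhere no member was called in 2i/LIF by edgeR or DESeq2, with 2 at an unadjusted p under 0.05, Eno3 and Pfkfb2. In LIF/serum Vegfa and Pfkp were the 2 called elsewhere, and DESeq2 called 5 higher and 1 lower. For a gene of chromosome 6, loss of Dax1 and the shift of the chromosome cannot be told apart.

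**Figure D4:**
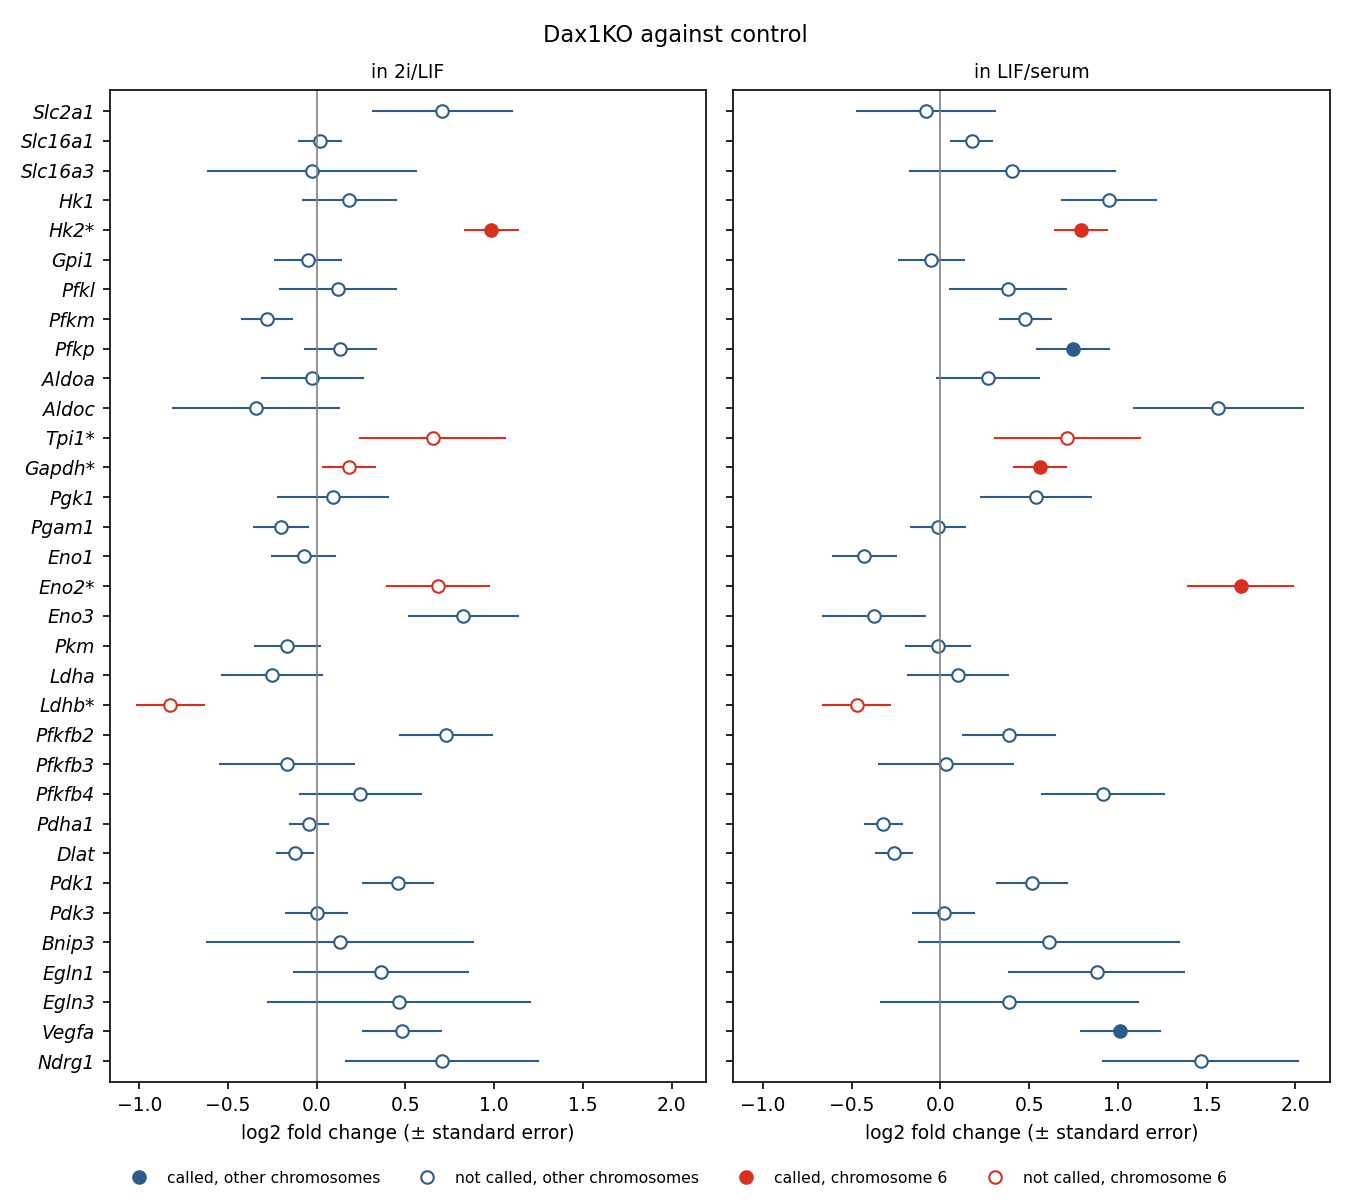
Log2 fold change of Dax1KO against control for each gene, 2i/LIF in the left panel and LIF/serum in the right, with bars of ± 1 standard error, filled where called and red for the 5 genes of chromosome 6. Hk2 is filled in both panels, and Ldhb is the one red point to the left of 0 in both, at -0.83 and -0.47.

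Of the chromosome 6 genes, Hk2 (82725025 to 82774454, minus strand, GRCm38) had 8755 and 10940.0 normalized counts in control cells in LIF/serum and 15537 and 18542 in Dax1KO cells. The libraries did not overlap, and it rose by 0.79 (SE 0.15, edgeR adjusted p = 0.0136), or 1.73-fold. Eno2 (124760053 to 124769673, minus strand) had 82.7 and 154 in control cells and 383 and 381 in Dax1KO cells. It rose by 1.69 (SE 0.30, edgeR adjusted p = 0.0108), or 3.23-fold, from a level that was low beside Eno1. In 2i/LIF Eno2 was at 183 and 158 in control cells and 302 and 247 in Dax1KO cells, apart but not called (edgeR adjusted p = 0.266). The calls of Hk2 and Eno2 in LIF/serum ended under 1 of 15 alternatives, without library 2 of Dax1KO cells in LIF/serum.

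Gapdh (125161715 to 125166467, minus strand) rose in LIF/serum, from 24337 and 23989.8 in control cells to 31334 and 40090.3 in Dax1KO cells, by 0.56 (SE 0.15, edgeR adjusted p = 0.0396), or 1.48-fold. Its call ended under 9 of 15 alternatives: in a separate fit of 4 libraries, without the filter, and when any library was left out other than library 1 of Dax1KO cells in LIF/serum. Tpi1 (124810586 to 124814296, minus strand) had 7668 and 9053 in Dax1KO cells in 2i/LIF against 4086 and 6539 in control cells, and 12589.6 and 23936 against 7133 and 15112 in LIF/serum. Its groups were apart in 2i/LIF and overlapped in LIF/serum, and its estimates of 0.65 and 0.72 were not called (edgeR adjusted p = 0.471 and 0.276). With each library left out in turn they ran from 0.35 to 1.05 and from 0.18 to 1.35. Gapdh overlaps Iffo1, and Tpi1 overlaps Spsb2, with at most 502 and 159 counts in the neighbours.

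Ldhb (142490249 to 142507957, minus strand) was the exception among the 5, with lower values in Dax1KO cells in both media. It had 4671 and 5385 in control cells in 2i/LIF and 2607 and 3067 in Dax1KO cells, with no overlap. The log2 estimate was -0.83 (SE 0.19, edgeR adjusted p = 0.0600), which missed the threshold, while over 15 alternatives it ran from -0.95 to -0.71 and was called in 6, DESeq2 among them. In LIF/serum it had 2015 and 2841 against 1591 and 1909, an estimate of -0.47 (SE 0.19, edgeR adjusted p = 0.134). With each library left out in turn this estimate ran from -0.70 to -0.21. Among all tested genes of chromosome 6, 213 of 1054 had an estimate below 0 in 2i/LIF and 234 in LIF/serum.

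Off chromosome 6, Vegfa had 620.2 and 915 in control cells in LIF/serum and 1281 and 1820.4 in Dax1KO cells. It rose by 1.01 (SE 0.22, edgeR adjusted p = 0.0233), or 2.02-fold, and the groups were apart. The call ended without library 1 of control cells or library 2 of Dax1KO cells in LIF/serum, without the filter, and in a separate fit of 4 libraries. In 2i/LIF Vegfa was at 1315 and 1358 against 1778 and 1953, an estimate of 0.48 that was not called (edgeR adjusted p = 0.306). Pfkp had 10646 and 15142 in control cells in LIF/serum and 18789 and 24426 in Dax1KO cells, a rise of 0.74 (SE 0.20, edgeR adjusted p = 0.0453), or 1.68-fold. That call ended under 9 of 15 alternatives: in a separate fit of 4 libraries, without the filter, and when any library was left out other than library 2 of control cells in LIF/serum. In 2i/LIF the Pfkp libraries overlapped, at 13962 and 17638 against 16677 and 17994.

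Among the uncalled genes off chromosome 6 in LIF/serum, Hk1 stood next to the threshold, with 1078 and 1157 in control cells against 1628 and 2690.1 in Dax1KO cells. Its estimate was 0.95 (SE 0.27, edgeR adjusted p = 0.0501) and was called in 6 of 15 alternatives. With single libraries left out the Hk1 estimate ran from 0.55 to 1.27. Aldoc, at 351 and 743 against 912 and 2328, had an estimate of 1.57 (SE 0.48, edgeR adjusted p = 0.0634), and Pfkm, at 818 and 995 against 1222 and 1307, one of 0.48 (SE 0.14, edgeR adjusted p = 0.0597). With single libraries left out the Aldoc estimate ran from 0.74, without library 2 of Dax1KO cells in LIF/serum, to 2.19, without library 2 of control cells there. The groups of these 3 genes did not overlap. All 5 hypoxia-response genes had estimates above 0 in both media, with a median of 0.46 in 2i/LIF and one of 0.88 in LIF/serum, where Vegfa was called. Of all 20749 tested genes, 9994 had estimates above 0 in 2i/LIF and 10466 in LIF/serum. At an unadjusted p under 0.05 in the edgeR test there were 0 of the 5 in 2i/LIF and 2 in LIF/serum. Single libraries turned some of the signs of the 5. Without library 2 of Dax1KO cells in LIF/serum the estimates there were -0.36 for Bnip3, -0.13 for Egln1 and -0.92 for Egln3, and those of Bnip3 and Egln3 were also below 0 without library 1 of control cells in LIF/serum. In 2i/LIF that of Bnip3 was -0.54 without library 1 of control cells. Ndrg1, at 524 and 1047 against 972 and 3369.7, had an estimate of 1.47 (SE 0.55, edgeR adjusted p = 0.115), and Bnip3, at 1891 and 6178 against 3138 and 9205, one of 0.61 (SE 0.73, edgeR adjusted p = 0.619). For both of these the groups overlapped. The Ndrg1 estimate was 0.31 without library 2 of Dax1KO cells in LIF/serum and 2.10 without library 1.

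Between the lines in LIF/serum the estimates of Pkm, Pgam1, Ldha and Slc2a1 were -0.01, -0.02, 0.10 and -0.08, and their libraries overlapped. With each library left out they ran from -0.22 to 0.17 for Pkm, from -0.25 to 0.19 for Pgam1, from -0.28 to 0.41 for Ldha and from -0.77 to 0.38 for Slc2a1. Eno1 was at 60064 and 80440.3 in control cells and 44831 and 59431 in Dax1KO cells, an estimate of -0.43 (SE 0.18, edgeR adjusted p = 0.145). That estimate ran from -0.65 to -0.22 with each library left out. Pdha1 and Dlat were lower without overlap, at 9759 and 9387 against 7542 and 7768 for Pdha1. Their estimates of -0.32 (edgeR adjusted p = 0.0790) and -0.26 (edgeR adjusted p = 0.129) were not called, and DESeq2 called Pdha1. In this medium 5 of 7 primitive endoderm markers and 3 of 6 trophoblast markers were called higher in Dax1KO cells, where 8.87% of all tested genes were, and 1 and 2 of them in 2i/LIF, where 1.51% were. Of 9 ESC markers 1 was called higher in LIF/serum. Of 5 tested fibroblast markers 2 were called higher, with sums of 458 and 486 normalized counts over the list in control cells and 1498 and 1434 in Dax1KO cells, while Col3a1, Lum and Postn were at 0 in both lines. In 2i/LIF the sums were 1873 and 2363 in control cells and 1348 and 1263 in Dax1KO cells, with 1 of 5 called lower, beside 1.65% of all tested genes. Of 4 neural ectoderm markers 1 was called lower in LIF/serum, beside 5.78%. The part of these markers in the values above was not tested.

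Isozyme shares describe the balance within a family, as the percent of its normalized counts per kilobase. Ldhb made up 30% and 25.2% of the lactate dehydrogenase pair in control cells in 2i/LIF and 7.92% and 7.45% in LIF/serum, and in Dax1KO cells 19.5% and 20.6% against 6.17% and 4.70%. Hk1 made up 32.2% ± 3.75 (SD, n = 2) of the hexokinase pair in control cells in 2i/LIF and 7.41% ± 0.737 (SD, n = 2) in LIF/serum, and 21.2% and 8.02% on average in Dax1KO cells. Both shares were higher in every 2i/LIF library than in every LIF/serum library. Pfkl went from 24.3% of the phosphofructokinases in control cells in 2i/LIF to 54.7% in LIF/serum, and from 26.1% to 49.8% in Dax1KO cells. Pdk1 went from 24.4% to 55.4% of the PDK pair in control cells and from 31.1% to 63.8% in Dax1KO cells. The Pfkl and Pdk1 shares are means of 2 libraries. Slc16a3 made up 4.35% and 13.5% of the lactate transporter pair in control cells in 2i/LIF and 26.3% and 45.7% in LIF/serum, and in Dax1KO cells 8.80% and 9.34% against 30.4% and 48.6%. Comparisons of 2 against 2 libraries cannot pass an exact permutation test, so none was run.

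Aldoa made up 96.6% to 99.0% of the aldolase counts in every library. For the enolases only Eno1, Eno2 and Eno3 were summed, and the near-identical copies of Eno1 were left out. Within these 3 Eno2 held 0.183% in control cells in LIF/serum and 0.825% in Dax1KO cells. The shares of the PFKFB genes varied widely between libraries of a group and are given as a plot only. The direction between media was the same for 19 of 19 isozymes in both lines when the longest transcript gave the length. With no division by length it was the same for 18 of 19 in control cells, Pfkfb3 turning, and 19 of 19 in Dax1KO cells. The sizes moved with the length used. The Hk1 share in control cells was higher in 2i/LIF by 24.8 percentage points, by 33.7 with the longest transcript and by 30.1 with no length.

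**Figure D5:**
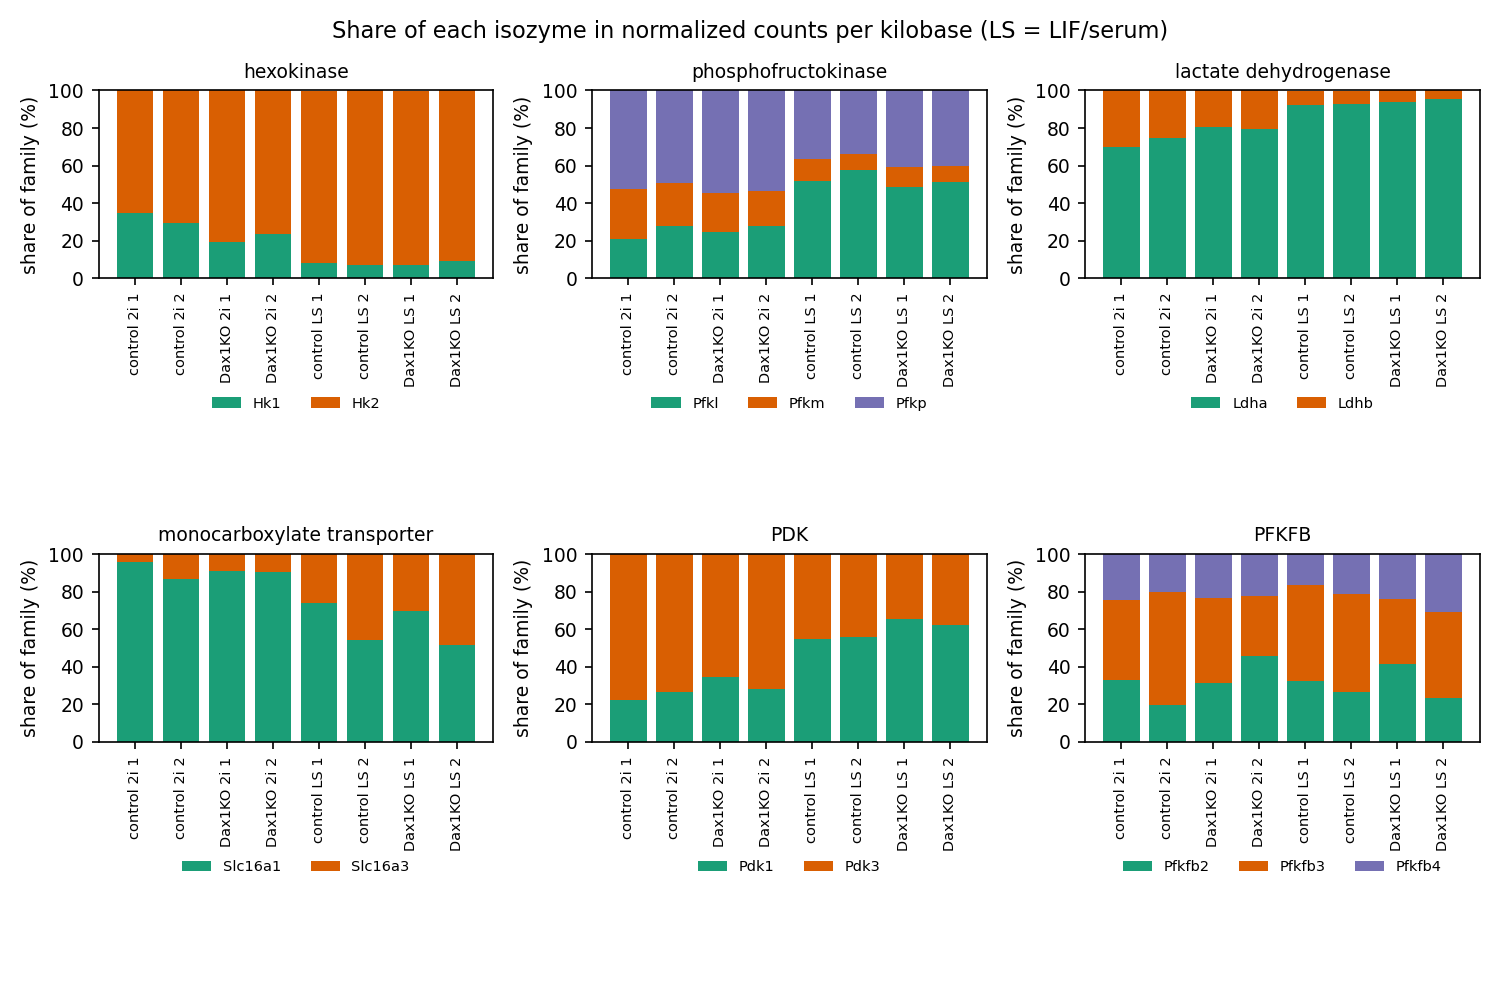
Share of each isozyme in the normalized counts per kilobase of its family (vertical axis, percent), with a bar for each of the 8 libraries and LS for LIF/serum. Hk1, Pfkm and Ldhb take larger shares in 2i/LIF, and Pfkl, Slc16a3 and Pdk1 in LIF/serum.

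The rest of the pathway was read from lists of other genes. Of 17 other glycolysis genes tested, 4 were called higher in 2i/LIF in control cells and 3 lower, with a median of -0.02, shares close to the 20.3% and 16.5% of all tested genes. Hkdc1, a hexokinase-like enzyme, had 11 and 6.0 normalized counts in 2i/LIF and 161 and 102 in LIF/serum, a fall of 3.93 (SE 0.46, edgeR adjusted p = 0.000475). Pgam2, the muscle mutase, had 173 and 201 against 35.0 and 44.8, a rise of 2.23 (SE 0.28, edgeR adjusted p = 0.000660). Between the lines none of the 17 was called in 2i/LIF by edgeR, with 5 at an unadjusted p under 0.05 and 1 by DESeq2. In LIF/serum 6 rose, Pgam2, Slc2a4, Slc2a3, Pgm2, Bpgm and Adpgk, beside 8.87% of all tested genes, and none was called lower by edgeR, with 9 at an unadjusted p under 0.05 and 1 called lower by DESeq2. Slc2a3 and Bpgm lie on chromosome 6. Pgam2 rose by 1.44 (SE 0.28, edgeR adjusted p = 0.0150). Slc2a3 (GLUT3), a glucose transporter singled out after its values were seen, had 29958 and 34303 in control cells and 50847 and 76812 in Dax1KO cells in LIF/serum, an estimate of 0.99 (edgeR adjusted p = 0.0127).

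Pentose phosphate genes, which branch from glucose-6-phosphate, were called higher in 2i/LIF in control cells for 5 of 10 and lower for none by edgeR, with 8 at an unadjusted p under 0.05 and 2 called lower by DESeq2. Of the 5, Rpia, Taldo1 and Tkt lost the call without library 2 of control cells in 2i/LIF, and the Tkt call ended under 12 of 15 alternatives. Over all tested genes 20.3% were called higher and 16.5% lower. In Dax1KO cells 3 were called higher and 1, G6pdx, lower, beside 15.2% and 13.7%. Tktl1, a transketolase-like gene, had 649 and 877 in 2i/LIF and 83.8 and 57.6 in LIF/serum in control cells, a rise of 3.43 (SE 0.25, edgeR adjusted p = 6.78e-05). Between the lines H6pd and Rpia, the latter on chromosome 6, rose in LIF/serum, 2 of 10 genes beside 8.87% of all tested genes, and none was called in 2i/LIF by edgeR, with 4 at an unadjusted p under 0.05 and 2 by DESeq2. H6pd rose by 0.72 (SE 0.17, edgeR adjusted p = 0.0267). Of 12 genes of pyruvate entry, 3 rose and 3 fell in 2i/LIF in control cells, shares near those of all tested genes. Pdp2, the phosphatase that reactivates pyruvate dehydrogenase, had 4042 and 4337 against 1456 and 1338, a rise of 1.58 (SE 0.12, edgeR adjusted p = 8.20e-05), the opposite direction to the kinase Pdk1. Pdhx, a structural subunit, fell by 0.62 (SE 0.13, edgeR adjusted p = 0.00767). In LIF/serum Pdk4, Pdk2, Pcx and Pdp2 rose in Dax1KO cells, beside 8.87% of all tested genes. Pdk4, which lies on chromosome 6, rose by 1.49 (SE 0.37, edgeR adjusted p = 0.0343). None of the 12 was called in 2i/LIF by edgeR, with 1 at an unadjusted p under 0.05 and 1 by DESeq2.

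Of 14 regulators of HIF, 6 were called lower in 2i/LIF and 2 higher in control cells, beside 16.5% and 20.3% of all tested genes. Of the 6, Arnt2, Hif1an, Rbx1 and Siah1a lost the call without library 1 of control cells in 2i/LIF. Epas1, the HIF-2 alpha subunit, had 1721 and 2009 in 2i/LIF and 4911 and 3251 in LIF/serum. Arnt2, a HIF partner, fell by 1.26 (SE 0.40, edgeR adjusted p = 0.0411) and Siah2, a ligase acting on prolyl hydroxylases, rose by 1.09 (SE 0.23, edgeR adjusted p = 0.00725). Hif1a itself had 6936 and 6869 against 9162 and 6449.7, which overlap. By medium in Dax1KO cells 2 of the 14 were called lower in 2i/LIF and 0 higher, beside 13.7% and 15.2% of all tested genes. Between the lines 1 of the 14 was called lower in Dax1KO cells in each medium, beside 1.65% of all tested genes in 2i/LIF and 5.78% in LIF/serum. Elob, a subunit of the VHL ligase, fell in 2i/LIF by 1.56 (SE 0.16, edgeR adjusted p = 0.00652), from 9799 and 10235 to 3719 and 3079. Egln2, a prolyl hydroxylase, fell in LIF/serum by 0.57 (SE 0.14, edgeR adjusted p = 0.0312). Epas1 and Hif1a were chosen after their values were seen.

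Of 36 other HIF target genes, 11 were called lower and 2 higher in 2i/LIF in control cells, with a median of -0.28, beside 16.5% and 20.3% of all tested genes. By medium in Dax1KO cells 14 were called lower and 2 higher, with a median of -0.55, beside 13.7% and 15.2%. In control cells Tmem45a fell by 2.93 (SE 0.37, edgeR adjusted p = 0.000658), from 510.0 and 583 in LIF/serum to 52.1 and 91.0 in 2i/LIF. Ak4, a mitochondrial adenylate kinase, rose by 1.87 (SE 0.27, edgeR adjusted p = 0.00140). Between the lines in LIF/serum Car9, Plod1, P4ha2 and Narf rose and Hmox1 fell, with a median of 0.40, beside 8.87% of all tested genes called higher and 5.78% lower. Car9, carbonic anhydrase 9, a marker of hypoxia, was low, at 11.7 and 17.1 in control cells and 45.9 and 76.1 in Dax1KO cells, a rise of 2.08 (SE 0.46, edgeR adjusted p = 0.0231). Hmox1, heme oxygenase, fell by 0.49 (SE 0.11, edgeR adjusted p = 0.0276). In 2i/LIF none was called by edgeR, with 1 at an unadjusted p under 0.05 and 1 by DESeq2.

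Myc family factors, which also act on glycolytic genes, differed by medium. Myc had 76.2 and 46.0 in control cells in 2i/LIF and 1766 and 1783 in LIF/serum, a fall of 4.86 (SE 0.34, edgeR adjusted p = 5.18e-05), while Mycl rose by 1.07 (SE 0.15, edgeR adjusted p = 0.00111). Mycn fell in 2i/LIF by 0.92 in control cells (edgeR adjusted p = 0.000374). By medium in Dax1KO cells it rose by 0.39 (edgeR adjusted p = 0.0236), a call that ended when any Dax1KO library was left out. Over all tested genes 16.5% were called lower and 20.3% higher in control cells, and 13.7% and 15.2% in Dax1KO cells. Between the lines 1 of the 3 was called lower in Dax1KO cells in each medium, beside 1.65% of all tested genes in 2i/LIF and 5.78% in LIF/serum. Mycn fell in LIF/serum by 1.48 (SE 0.10, edgeR adjusted p = 0.000883), from 9044 and 8958 to 3331 and 3144. Mycl fell in 2i/LIF by 0.72 (SE 0.15, edgeR adjusted p = 0.0450), a call that ended under 10 of 15 alternatives and with any library left out.

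Many calls of these other genes between the lines ended with a library left out. Of 19 called in LIF/serum, Mycn, Pgm2 and Plod1 kept the call in every alternative. The call of Slc2a3 ended without library 1 of control cells in LIF/serum, and those of the other 15 without library 2 of Dax1KO cells in LIF/serum and under up to 7 other alternatives. The call of Elob in 2i/LIF ended without library 2 of Dax1KO cells in 2i/LIF. By medium in control cells 22 of 42 kept the call throughout, with Myc, Mycl, Tktl1, Hkdc1, Pgam2, Pdp2, Epas1, Tmem45a and Ak4 among them. The call of Pdhx ended without library 1 and that of Siah2 without library 2 of control cells in 2i/LIF, and that of Arnt2 under 6 alternatives.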

How the data were processed

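Messenger RNA of control and Dax1KO ESCs in 2 media was sequenced on an Illumina HiSeq. The authors deposited raw counts, a whole number for each gene in each library. The submitters' processing notes name HISAT2 2.0.4, mm10 and DESeq2, and the counting tool, annotation and strand setting are not given in the sources used here. Groups came from the sample titles. Of 52550 identifiers, 52403 were found in the GENCODE M21 annotation of GRCm38, which gave symbols, coordinates and lengths.

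Counts were filtered with filterByExpr, scaled by TMM (factors 0.960 to 1.04) and fitted with the quasi-likelihood model of edgeR 4.0.16 in R 4.3.3, with a mean per group over all 8 libraries and p values adjusted by the Benjamini-Hochberg method over 20749 genes. Calls needed an adjusted p within 0.05 and at least a 1.2-fold change, except that the fold was not used for the difference between media. The fit had 4.04 prior degrees of freedom and a biological coefficient of variation of 20.9%. Low counts piled up at 3 and 6, and intervals or floors cover counting error only. No 2 libraries held identical values. Near-identical copies were sought with blastn 2.17.0 at 95% identity over at least 50% of a transcript. Promoters came from RefSeq (GRCm38.p6).

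The genes and lists were chosen with earlier results of these data known. Named genes were the 33, Dax1, and from each list the called gene with the largest increase and decrease in each Dax1KO comparison and in the medium comparison of control cells. Alternatives were DESeq2 1.42.0, RLE factors, TMM without chromosome 6, no filter, at least 10 counts in every library, separate fits of 4 libraries, the replicate number as a block and each library left out.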

Additional observations from a re-analysis of the deposited data

Results flagged for a closer look

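A difference of the Dax1KO effect between media was called for 6 of 92 genes of the other pathway lists and for none of the 33 (4 at an unadjusted p under 0.05 and 2 by DESeq2), beside 2.87% of all tested genes, by edgeR's interaction test with Benjamini-Hochberg adjustment. Whether these shares differ was not tested. The values are log2 fold changes in 2i/LIF minus those in LIF/serum. Pgam2 had -2.08 (edgeR adjusted p = 0.0359), from -0.64 in 2i/LIF and 1.44 in LIF/serum. Plod1 had -1.04 (edgeR adjusted p = 0.0290), from -0.01 and 1.03, and Pgm2 had -1.02 (edgeR adjusted p = 0.0239), from -0.09 and 0.93. Pdp2 had -0.89 (edgeR adjusted p = 0.0400), from -0.25 and 0.64. Elob had -1.10 (edgeR adjusted p = 0.0419), from -1.56 and -0.46, and Mycn had 1.30 (edgeR adjusted p = 0.00876), from -0.17 and -1.48. Each of these calls ended without either library of Dax1KO cells in 2i/LIF, Mycn under 2 and Pdp2 under 10 of 14 alternatives, and no sign turned.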

How the results depend on the processing

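The counts of called genes among the 33 depended on the tool, the filter and single libraries. For Dax1KO against control in 2i/LIF, 1 gene in the fit as reported became 2 with DESeq2, 0 without the filter, 2 with at least 10 counts in every library, 2 in a separate fit and 2 with the replicate block. For LIF/serum, 5 became 9 with DESeq2, 2 without the filter, 2 in a separate fit and 11 with the replicate block. For the difference between media, 0 became 2 with DESeq2. Leaving out each library in turn gave 0 to 2 genes in 2i/LIF, 0 to 7 in LIF/serum, 0 for the difference between media, and 9 to 18 and 5 to 16 for the media in control and Dax1KO cells. In the same fits the median log2 difference of the chromosome 6 genes ran from 0.35 to 0.65 in 2i/LIF and from 0.38 to 0.95 in LIF/serum. For the media it ran from -0.40 to -0.18 in control cells and from -0.61 to -0.34 in Dax1KO cells. Off chromosome 6 the median ran from -0.15 to 0.55 for Dax1KO in LIF/serum and from -0.20 to -0.049 for the media in control cells. The causes were not tested beyond the fewer samples or other genes each fit holds.

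The replicate numbers pair only 2 libraries per medium and no label gives them a shared batch. Deviations of same-numbered libraries correlated at 0.080 in 2i/LIF and 0.108 in LIF/serum over all genes, and at 0.084 and 0.794 over the 33. Across media the 4 such correlations lay between -0.015 and 0.062 over all genes, and over the 33 they were 0.651, 0.569, 0.332 and 0.313. The replicate block called 21 genes between media in control cells and 19 in Dax1KO cells. Between media it added Tpi1 (edgeR adjusted p = 0.00764 and 0.00922 in control and Dax1KO cells), Egln3 (0.0244 and 0.0390) and Gpi1 in both lines, Hk2 and Gapdh in control cells and Aldoa in Dax1KO cells. Between the cell lines it added Ldhb in both media, and Hk1, Pfkm, Aldoc, Tpi1 and Ndrg1 (edgeR adjusted p = 0.0358) in LIF/serum. Among the 33 genes, no called direction turned under any alternative, while 90 values lost a call and 43 gained one. The same alternatives were read for the called genes of the other lists, a choice made after seeing the data, and no direction turned there.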
